A study of Homo sapiens with 3 samples.

Results

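The genes described here encode the pyruvate dehydrogenase complex with its kinases and phosphatases, the enzymes of the tricarboxylic acid (TCA) cycle, and the malic, glutamate and aspartate enzymes that feed carbon into or out of the cycle. They were chosen by name: every probe of the array whose platform gene symbol was on a list of 35 genes. Of these, 32 were measured by 45 probes, out of 20045 genes with a probe of their own and 48105 probes in all; PDP2, SDHB and FH were not analysed here. Total RNA came from MDA-MB-231, a human triple-negative breast cancer cell line with mesenchymal features, and was read on 3 Illumina bead arrays (Cy3), 1 in each of 3 groups. The first group carried an FBP1 expression vector and the second the same transfection with an empty vector, and the third was a wt control of which the labels say no more. All were kept in DMEM medium with 10% serum. Whether the transfected cells were a pool or 1 clone, and which promoter drove FBP1, is not stated in the labels. FBP1, fructose-1,6-bisphosphatase 1, is a gluconeogenic enzyme that reverses the phosphofructokinase step. The comparison asks which transcripts of pyruvate oxidation and the cycle differed where FBP1 was added. Single arrays allow neither a replicate check nor a p-value for any difference.

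The pyruvate dehydrogenase complex converts pyruvate made by glycolysis into acetyl-CoA inside mitochondria, and is switched off when its kinases phosphorylate it and on again when its phosphatases remove the phosphate. Citrate synthase joins acetyl-CoA to oxaloacetate, and the cycle oxidises the product back to oxaloacetate while passing electrons to the respiratory chain. Several of its steps have a second enzyme in the cytosol, and the NADP-linked isocitrate dehydrogenases and the malic enzymes also make the NADPH used in lipid synthesis and against oxidants.

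The arrays were first checked against their labels. FBP1 had deposited intensities of 1063.5 (FBP1 array), 678.6 (empty vector) and 530.8 (wt). After normalisation it was 1.79-fold higher than with the empty vector, where 317 detected genes stood higher, and 2.44-fold higher than in wt. The empty vector array was itself 1.37-fold above the wt array. All 9 markers expected in MDA-MB-231 cells, VIM and CD44 among them, were detected on every array. CDKN2A and MTAP, which lie with CDKN2B in a stretch of the genome deleted in this line, were however detected on the FBP1 array (detection p-values of 2.7e-10 and 3.1e-05) and on neither control. Of the 6 genes expected to be absent, 3 were detected with FBP1 (CDH1, CDKN2A and MTAP), 1 with the empty vector (CDKN2B) and 0 in wt, and these detections go against the labelled line. Luminal breast markers moved the same way: of 14, 9 were detected with FBP1, 8 with the empty vector and 7 in wt, with summed log2 levels of 103, 96.6 and 93.9, while ESR1, PGR, GATA3 and TFF1 were detected on none. Of 7 fibroblast markers 3, 3 and 2 were detected (summed levels 35.7, 34.8 and 34.3), with LUM, DCN and PDGFRA at background. COL1A1 and PDGFRB were detected on every array, and COL1A2 on the FBP1 and empty vector arrays only. Of 7 blood cell markers 3, 3 and 4 were detected (40.3, 39.7 and 40.9), with PTPRC and CD3E at background. CD14 and LCP1 were detected on every array, HBA2 on the FBP1 and wt arrays, and CORO1A on the controls. The part of these markers in any difference below was not tested. In a bulk sample, fewer cells of a type and less RNA per cell cannot be told apart.

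The 32 genes were all detected on all 3 arrays, and few of them differed by 1.5-fold, as was so of detected genes in general. Levels are normalised log2 intensities, differences are log2 differences of such levels, and a gene with several probes is given by its brightest. The FBP1 array differed from the empty vector array by less than 0.25 for 18 of the 32 genes and from the wt array for 17, where 53% and 47.7% of all detected genes lay that close; the controls lay that close to each other for 25, and for 62.6% of all detected genes. Set against the empty vector, 2 members, PDK4 and IDH1, were higher by 1.5-fold or more, against 6.53% of 12895 detected genes, and 1 was that far below, IDH2, against 5.84%. Against the wt array 3 were higher, PDK2, PDK4 and IDH1, against 8.65% of genes, and 1 was lower, ME2, against 7.69%. These shares of the list, 6.25% and 3.12%, and 9.38% and 3.12%, stood near or below the background. IDH1 and PDK4 were at least 1.5-fold above both controls, 6.25% of the list against 4.02% of genes; no member was that far below both, against 3.06%. Past 2-fold in either direction there was 1 member against the empty vector (IDH2, against 2.2% of genes), 0 against wt (3.29%) and 0 between the controls (1.02%). Between the controls PDK3 alone was 1.5-fold higher on the empty vector array, against 3.82% of genes, and no member was lower, against 3.26%.

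Small differences leaned downward. The FBP1 array was the lowest of the 3 arrays for 19 of 32 members (59.4%, against 38.1% of detected genes) and the highest for 7 (21.9%, against 37.6%), with 6 in between (18.8%, against 24.3%), and with scaling to the median of all probes the lowest for 6 and the highest for 20. That scaling moved the median of all genes by 0.20 against the empty vector array and by 0.28 against the wt array, and counted relative to the median of all genes it left 17 members below both controls and 8 above. The median difference of the list was -0.10 from the empty vector and -0.17 from wt, where all detected genes had -0.01 and 0.00; with median scaling these turned to 0.14 and 0.12, against 0.20 and 0.28. The 2 comparisons share the FBP1 array. Between the controls the median of the list was -0.04 (empty vector minus wt).

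**Figure D1:**
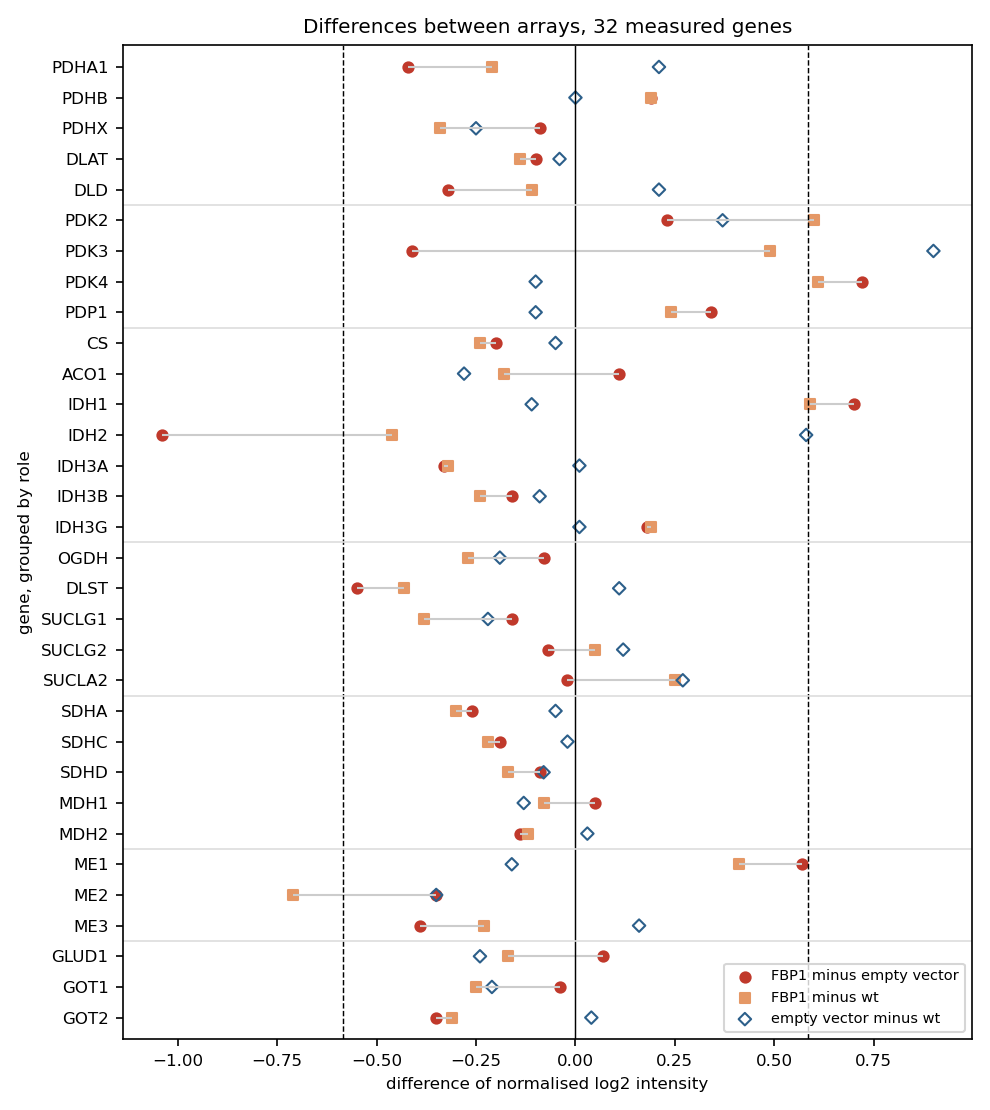
Differences of normalised log2 intensity (x axis) for the 32 measured genes, grouped by role (y axis), between the FBP1 and empty vector arrays (filled circles), the FBP1 and wt arrays (squares) and both controls (open diamonds), with 1 array each; dashed lines mark 1.5-fold. Most points lie between the dashed lines, with IDH1, PDK4, PDK2 against wt (0.60) and PDK3 between the controls (0.90) to the right and IDH2 (-1.04) and ME2 (-0.71) to the left of them; with median scaling the median of all genes in the FBP1 comparisons moves right by 0.20 and 0.28.

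The NADP-linked isocitrate dehydrogenases differed in opposite directions, and IDH2 against the empty vector was the largest difference of any member. IDH1 makes 2-oxoglutarate and NADPH in the cytosol and peroxisomes, and IDH2 does so in mitochondria. The brighter IDH1 probe (ILMN_2091347) had intensities of 816.0 with FBP1, 570.7 with the empty vector and 631.5 in wt, and the other (ILMN_1696432) had 357.7, 256.7 and 242.1. Both probes were highest on the FBP1 array, and the controls were close to each other. The first probe was 1.63-fold higher than with the empty vector and 1.51-fold higher than in wt (0.70 and 0.59), and the second gave 0.77 and 0.92. Of 12895 genes, 537 lay higher against the empty vector than IDH1, and 1088 lay higher against wt. Under 9 other settings the IDH1 difference from the empty vector array ran from 0.59 to 0.93, past 1.5-fold in all 9. That from the wt array ran from 0.49 to 0.88, past 1.5-fold in 4. In both comparisons the settings that changed only the detection filter repeated the values given, because IDH1 was detected on all arrays.

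IDH2 was lowest on the FBP1 array. Its 1 probe (ILMN_1751753) had intensities of 138.9 with FBP1, 223.8 with the empty vector and 174.3 in wt, against an estimated background of 85.7 to 88.0. It lay 2.05-fold below the empty vector array, a difference of -1.04 that 104 genes exceeded, and was the only member past 2-fold (0.938% of detected genes were at least 2-fold lower). Against the wt array the difference was -0.46 (1.37-fold), which is smaller than that between the controls, where the empty vector array was 0.58 above. IDH2 was dim, and its difference from the empty vector array shrank to -0.61 without background correction and to -0.49 in the authors' processed table.

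The malic enzymes split in the same way. ME1, the cytosolic NADP-linked enzyme that turns malate into pyruvate, had intensities of 255.7, 209.2 and 228.3 on the FBP1, empty vector and wt arrays. It was 1.48-fold higher than with the empty vector and 1.33-fold higher than in wt (0.57 and 0.41), short of 1.5-fold in both. ME2, the mitochondrial NAD-linked enzyme, was lowest on the FBP1 array with both probes: ILMN_1675186 had 325.6, 429.4 and 543.2, and ILMN_2048636 had 268.2, 394.7 and 497.1. The first gave differences of -0.35 and -0.71 and the second of -0.58 and -0.93. The controls were apart here too, with the empty vector array -0.35 from the wt array on both probes, so that the empty vector array lay between the other arrays. ME3, the mitochondrial NADP-linked enzyme, had 329.8, 443.8 and 415.2 on its brightest probe (-0.39 and -0.23). A second ME3 probe, ILMN_1812362, was close to background at 100.2, 103.2 and 92.9, and a further one was detected on no array; with the mean of the detected probes ME3 stood at -0.18 and 0.04.

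**Figure D2:**
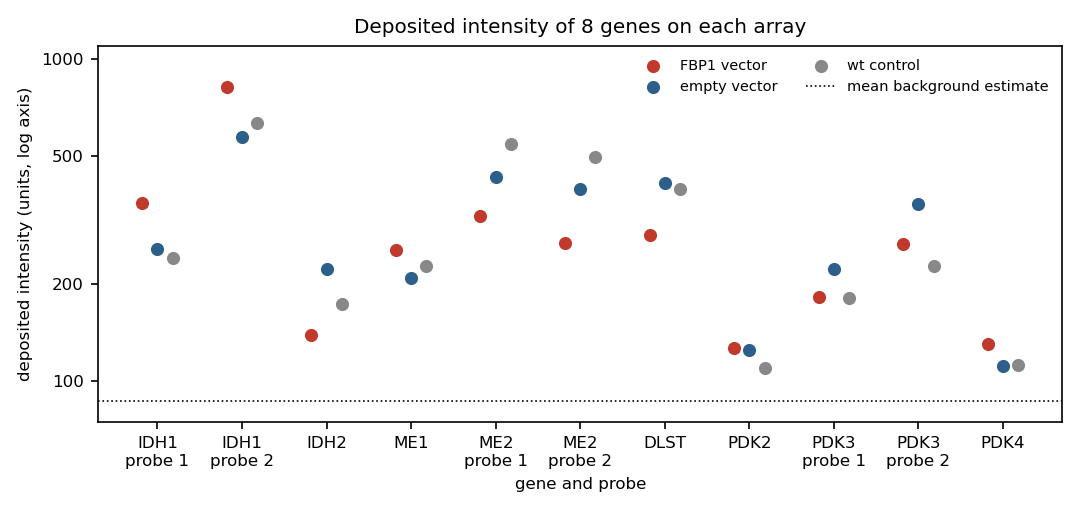
Deposited intensity on a log axis (y axis) of each probe detected on all 3 arrays for 8 genes (x axis), 1 point for each array; the dotted line is the mean background estimate. Both IDH1 probes were highest on the FBP1 array, IDH2 and both ME2 probes were lowest there, and PDK2 and PDK4 lay between 109.7 and 130.8 on all arrays, close to background.

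The contrast between compartments was then read over each reaction of the list with a cytosolic and a mitochondrial enzyme, a reading chosen after these values were seen. The cytosolic member stood above the mitochondrial member, as a difference of differences, in 5 of 5 pairs against each control. Against the empty vector array the gap was 1.74 for IDH1 and IDH2, 0.92 for ME1 and ME2, 0.96 for ME1 and ME3, 0.31 for the aspartate aminotransferases GOT1 and GOT2, and 0.20 for the malate dehydrogenases MDH1 and MDH2. Against the wt array the gaps were 1.05, 1.12, 0.64, 0.06 and 0.03 in the same order. Between the controls the gaps were -0.69, 0.19, -0.32, -0.25 and -0.16, so that for GOT and MDH the gap against the wt array was smaller than that between the controls. A constant scaling of an array cancels in such a gap, but the values given are quantile normalised, which is not a constant scaling. With median scaling MDH1 stood at 0.26 and MDH2 at 0.28 against the wt array, so that the sign of that gap turned. With scaling to the probes detected on all 3 arrays MDH1 stood at -0.04 and MDH2 at -0.02, again with the sign turned. ME1 stands in 2 of the pairs, and all gaps of a comparison share its arrays. ACO1, the cytosolic aconitase, stood at 0.11 and -0.18 and was not in a pair.

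**Figure D3:**
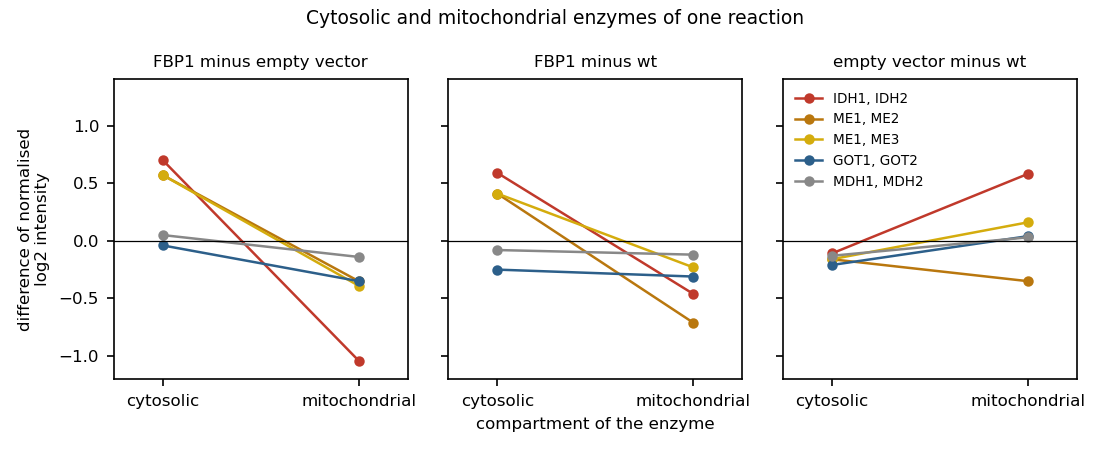
Difference of normalised log2 intensity (y axis) of the cytosolic and the mitochondrial enzyme (x axis) of each reaction, 1 line for each pair, in the comparisons of FBP1 with the empty vector, FBP1 with wt, and the empty vector with wt. Lines fall from left to right in both FBP1 comparisons, steeply for IDH1 and IDH2 (gaps of 1.74 and 1.05) and nearly level for MDH1 and MDH2 (0.20 and 0.03).

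The promoters of IDH1, ME1 and ME2 are shown because IDH1 and ME1 stood highest, and ME2 lowest, among the enzymes that are not kinases against the wt array. Each window runs from 250 bases before to 50 bases after the outermost start of the gene in RefSeq (build GRCh38.p14), 5′ to 3′ on the gene's strand. Capitals mark the core of the antioxidant response element, TGACNNNGC on either strand, which the oxidant-response factor NRF2 is known to bind.
IDH1, chr2:208255022-208255321, minus strand: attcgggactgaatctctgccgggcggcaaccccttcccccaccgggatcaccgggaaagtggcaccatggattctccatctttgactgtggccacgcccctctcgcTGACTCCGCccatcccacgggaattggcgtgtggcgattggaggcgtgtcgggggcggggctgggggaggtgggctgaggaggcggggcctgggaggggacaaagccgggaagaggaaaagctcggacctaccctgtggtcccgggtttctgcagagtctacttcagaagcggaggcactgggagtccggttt
ME1, chr6:83431002-83431301, minus strand: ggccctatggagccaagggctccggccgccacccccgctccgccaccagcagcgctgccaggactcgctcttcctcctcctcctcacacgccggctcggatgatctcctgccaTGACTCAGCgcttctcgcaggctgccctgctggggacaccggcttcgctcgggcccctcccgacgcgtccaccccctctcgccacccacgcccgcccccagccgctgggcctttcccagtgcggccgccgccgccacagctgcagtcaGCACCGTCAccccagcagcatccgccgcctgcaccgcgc
ME2, chr18:50878868-50879167, plus strand: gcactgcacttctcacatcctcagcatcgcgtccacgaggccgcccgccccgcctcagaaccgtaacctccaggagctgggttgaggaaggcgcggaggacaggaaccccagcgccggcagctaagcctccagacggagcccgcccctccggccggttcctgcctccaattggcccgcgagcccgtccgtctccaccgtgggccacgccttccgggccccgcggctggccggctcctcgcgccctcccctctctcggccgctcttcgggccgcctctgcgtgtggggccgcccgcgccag
The core began 143 bases before the start in IDH1. In ME1 it began 137 bases before the start and again, on the opposite strand, 11 bases after it. None of the motifs named here was found in the ME2 window. Promoter windows were found for 29 of the 32 members, 27 of them at the outermost start (IDH2 was not among the 27). Of the 29, 5 (17.2%) held the antioxidant core, against 13.6% of the windows of 27305 genes. These 5 did not run one way. IDH1, ME1 and IDH3G (0.18 and 0.19) were above both controls, and SUCLG1 (-0.16 and -0.38) and GOT2 (-0.35 and -0.31) were below both. The GABPA and ETS core CCGGAAGT was in 4 windows (13.8%, against 4.42%): MDH2, SDHD, DLST and IDH3B. The hypoxia core ACGTG was in 6 (20.7%, against 21.6%) and the estrogen-related receptor core AAGGTCA in 2 (6.9%, against 4%). The sterol element TCACNCCAC was in GOT1 alone (3.45%, against 1.13%). A match of letters is not a bound site.

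The 5 subunit genes of the pyruvate dehydrogenase complex stayed within 1.5-fold in every comparison. PDHA1, the E1 alpha subunit that carries the phosphorylation sites, had intensities of 809.5, 1143.2 and 1040.0 on the FBP1, empty vector and wt arrays and stood at -0.42 and -0.21. PDHB, the E1 beta subunit, was the only one of the 5 above both controls, at 3467.9, 3215.0 and 3281.3 (0.19 against both). DLD, the E3 subunit shared with the other 2-oxo acid dehydrogenases, stood at -0.32 and -0.11, PDHX, which tethers E3, at -0.09 and -0.34, and DLAT, the E2 acetyltransferase, at -0.10 and -0.14. The FBP1 array was thus the lowest for 4 of the 5 and the highest for 1, against 38.1% and 37.6% of detected genes. With median scaling it was the lowest for 0 and the highest for 2 (4 and 1 relative to the median of all genes).

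The 3 detected kinases that switch the complex off were all above the wt array, by 0.49 to 0.61 on the brightest probe of each, but not all above the empty vector array. With the phosphatase PDP1, these 4 genes had medians of 0.28 and 0.55. Of the 4, 3 were above both controls, against 37.6% of detected genes. The count was 3 also with median scaling and relative to the median of all genes. PDK4, the kinase induced by fasting and fatty acid oxidation, had intensities of 130.8 with FBP1, 111.3 with the empty vector and 112.7 in wt, and stood 1.64-fold and 1.53-fold higher (0.72 and 0.61). It was near background, and the differences were 0.31 and 0.27 without background correction and 0.26 and 0.23 in the authors' processed table. PDK2, a widely expressed kinase, had 126.8, 124.7 and 109.7, and was lowest on the wt array, with differences of 0.23 and 0.60 that fell to 0.10 and 0.26 without background correction. PDK3 was highest on the empty vector array with both probes: ILMN_1827736 had 266.1, 355.9 and 228.7, and ILMN_1776582 had 182.8, 223.8 and 181.2. The FBP1 array therefore lay between the controls (-0.41 and 0.49 on the brighter probe, -0.32 and 0.17 on the other). On the brighter probe PDK3 was 1.86-fold higher with the empty vector than in wt, the farthest apart that the controls stood for any member. PDP1, the phosphatase that switches the complex on, had 263.6, 239.6 and 255.5 (0.34 and 0.24).

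**Figure D4:**
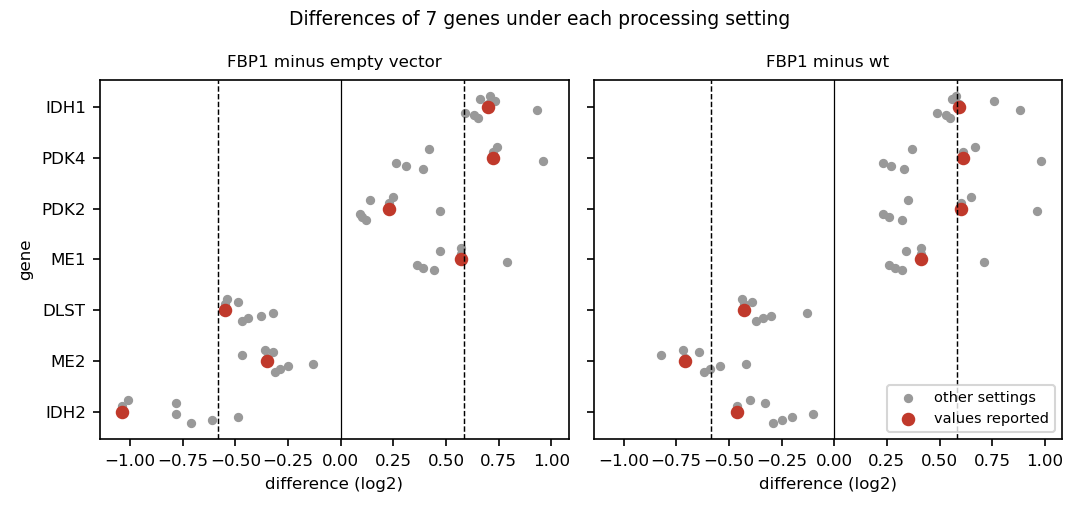
Differences (log2, x axis) of 7 genes (y axis) between the FBP1 array and each control under the values reported (large points) and 9 other settings of background correction, scaling, filter and probe choice (small points); dashed lines mark 1.5-fold. IDH1 stayed past 1.5-fold against the empty vector array under all 9 and IDH2 under 8, and each of the 7 kept its sign. PDK4 and PDK2 dropped to between 0.23 and 0.37 against the wt array with no or other background correction, a larger offset or the authors' processed table. The filter settings could only repeat the values reported for all 7. The probe choice could only repeat them for IDH2, PDK4, PDK2, ME1 and DLST, which have 1 probe each.

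From citrate synthase to succinate most genes lay slightly below the controls or close to them. Of 12 genes, with IDH1 and IDH2 counted, 7 were lowest on the FBP1 array and 2 highest. Over all detected genes these shares were 38.1% and 37.6%. With median scaling 3 of the 12 were lowest and 8 highest, and relative to the median of all genes 7 and 3. CS, the first enzyme of the cycle, was read by 3 probes that were all lowest on the FBP1 array: the brightest had 1977.1, 2437.2 and 2589.8, and the differences ran from -0.36 to -0.20 against the empty vector array and from -0.41 to -0.24 against wt. With median scaling the brightest probe turned to 0.04 and 0.06, below the median of all genes in both. The NAD-linked isocitrate dehydrogenase, which drives the mitochondrial cycle, is built of 3 subunits. IDH3A, the catalytic one, stood at -0.33 and -0.32 and IDH3B at -0.16 and -0.24, while IDH3G stood at 0.18 and 0.19 on its bright probe. DLST, the E2 subunit of the 2-oxoglutarate dehydrogenase complex, had 283.6, 412.1 and 395.4, with the controls close together and the FBP1 array 1.46-fold and 1.35-fold below them (-0.55 and -0.43). Its partner OGDH, the E1 subunit, stood at -0.08 and -0.27 on its bright probe; 2 further OGDH probes were detected on no array. The ligases that turn succinyl-CoA into succinate stood at -0.16 and -0.38 (SUCLG1, the subunit shared by both forms), -0.07 and 0.05 (SUCLG2, of the GTP form) and -0.02 and 0.25 (SUCLA2, of the ATP form).

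From succinate to oxaloacetate the differences were small. On the brightest probe of each, the 5 genes measured ran from -0.26 to 0.05 against the empty vector array. Against the wt array they ran from -0.30 to -0.08. SDHA, the flavoprotein subunit of succinate dehydrogenase, stood at -0.26 and -0.30 on its brighter probe, but at 0.05 and 0.18 on the other; it has pseudogenes that its probes may also read. Of the membrane anchor subunits, SDHC stood at -0.19 and -0.22 on its brighter probe and lower on the other, at -0.43 and -0.32. SDHD stood at -0.09 and -0.17. MDH2, the malate dehydrogenase of the cycle, had 6840.4, 7612.2 and 7752.2 (-0.14 and -0.12), and MDH1, its cytosolic counterpart in the malate-aspartate shuttle, stood at 0.05 and -0.08. At these sizes the sign rests on the scaling: with median scaling 4 of the 5 were above both controls and 1 below, whereas relative to the median of all genes 3 were below both and 0 above.

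Of the genes that link the cycle to glutamate and aspartate, GOT2 lay farthest from the controls. This mitochondrial aminotransferase of the malate-aspartate shuttle had 1041.8, 1413.1 and 1448.5, 1.28-fold and 1.24-fold below controls that were nearly equal (-0.35, -0.31 and 0.04). GOT1, its cytosolic counterpart, stood at -0.04 and -0.25, with the empty vector array -0.21 from the wt array. GLUD1, which makes 2-oxoglutarate from glutamate, stood at 0.07 and -0.17; its copy GLUD2 is nearly identical, and the probe may read both.

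Where a gene had more than 1 probe detected on all arrays, the probes mostly ran the same way. Of 7 such genes, the probes had the same sign against the empty vector array in 6 and against the wt array in 5, and between the controls in 3. SDHA differed in sign in all 3 comparisons, and SUCLA2 against the wt array (-0.23 and 0.25).

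The neighbours of the list were read from lists written down beside it. In the list of pyruvate entry, carboxylation and citrate exit, 1 of 9 detected genes was higher by 1.5-fold against the empty vector and 2 against wt. Over all detected genes the shares were 6.53% and 8.65%. In that list 0 were lower by 1.5-fold, and the medians were 0.29 and 0.08. Above both controls by any amount were 5, against 37.6% of detected genes, and 8 with median scaling. ACSS1, the mitochondrial acetyl-CoA synthetase, had 170.0, 142.7 and 121.8 (0.64 and 1.09; 0.35 and 0.55 without background correction), and PCK2 stood lowest at -0.31 and 0.06. Among 6 detected further 2-oxo acid dehydrogenase genes, BCKDHA, the E1 alpha subunit of branched-chain oxidation, was 1.61-fold and 1.80-fold higher (374.7, 280.4 and 261.3). It stood at 0.54 and 0.65 without background correction and at 0.50 and 0.60 in the authors' processed table. Both settings left it short of 1.5-fold against the empty vector array. No other passed 1.5-fold (the kinase gene PDK1 was detected on no array). BCKDK, the kinase that switches the branched-chain complex off, stood lowest at -0.21 and -0.05 (0.03 and 0.23 with median scaling). Of 7 genes of lipoylation and succinate dehydrogenase assembly, GCSH, a lipoyl carrier protein, was 1.51-fold and 1.70-fold lower (258.8, 381.8 and 432.7). In the authors' processed table GCSH stood at -0.40 and -0.54, and with the mean of its detected probes at -0.45 and -0.51, short of 1.5-fold throughout. LIPT1 stood highest of that list against the empty vector array at 0.20 (-0.38 against the wt array). That list had medians of -0.13 and -0.18, with 4 genes below both controls, against 38.1% of detected genes. With median scaling 1 was below both, and relative to the median of all genes 4 were.

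The regulators of mitochondrial biogenesis had medians of 0.11 and 0.09 over 10 genes. Of these 10, 3 were above both controls (8 with median scaling, 3 relative to the median of all genes), against 37.6% of detected genes. PPARGC1A, the coactivator PGC-1 alpha, was dim at 156.7, 132.7 and 127.4 and stood at 0.64 and 0.74 (0.32 and 0.37 without background correction), the only one past 1.5-fold above both controls, while the mitochondrial transcription factor TFAM stood lowest at -0.23 and -0.32. Of 10 genes that stand for mitochondrial content, 9 were lowest on the FBP1 array, against 38.1% of detected genes. None was lower by 1.5-fold, and the medians were -0.20 and -0.23. With median scaling 2 were below both controls and 4 above, and relative to the median of all genes 9 were below. Against the empty vector array they ran from CYCS (-0.47 and -0.21) to VDAC1 (-0.06 and -0.25). CYCS was dim at 114.3, 139.3 and 126.1, and stood at -0.21 and -0.09 without background correction. The 4 detected genes of glutamine and alanine entry had medians of 0.21 and 0.20, with GPT, which only the FBP1 array detected, higher by at least 1.1-fold, and PSAT1 lowest against the empty vector array (0.03 and -0.10). Over all 12895 detected genes the medians were -0.01 and 0.00.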

How the data were processed

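Total RNA, adjusted to 100 ng/µl per the labels' protocols, was read on 1 array in each group. The first deposited table holds an intensity for each probe and array and, per the file headers, a detection p-value; neither names the scanner software. A second deposited table, the authors' processed values, also holds intensities; its normalisation is not stated in the labels or headers. Of 48107 probes, 2 lacked a value and were left out. Median intensities were 91.7, 94.6 and 93.7 on the FBP1, empty vector and wt arrays, and 20190, 20168 and 20117 probes were detected at a detection p-value under 0.01. Precision is limited by the number of arrays.

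Intensities were background-corrected from the detection p-values, quantile normalised and taken as log2 by the neqc function (limma 3.58.1, R 4.3.3; offset 16). The estimated background SD was 4.2, 12.8 and 16.2 on those arrays; it is uncertain, as are differences of dim genes that rest on it (PDK4, PDK2, IDH2), because the deposited detection p-values did not follow from the intensity alone, which the method assumes. The platform annotation gave 1 gene for 30112 probes (8 had several, 17985 were unnamed here), and 30073 of these took their current symbol from the RefSeq gene table of GRCh38 by gene ID. A gene was read from its brightest probe and counted if detected on at least 1 of the 3 arrays. Where the dimmer array did not detect a gene, the fold is a lower bound, against the higher of its own level and the lowest detected level on that array. With 1 array in a group no test was possible, and genes were counted at 1.5-fold and 2-fold. Alternatives changed the background correction, offset, scaling, filter, probe choice and source table; scaling to the probes detected on all arrays was chosen after seeing the data. The members and lists were chosen with earlier results of these data known. Genes named were FBP1, every member, and in each other list the highest and lowest against the empty vector array and any at least 1.5-fold from both controls. The steps were tested on simulated data in which the altered probes were all well above background and every array had the same background SD. Dim genes such as PDK4, PDK2 and IDH2 were not covered by that test. Python 3.11.15 with pandas 2.3.3, numpy 2.4.6 and matplotlib 3.10.9 was used.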

Additional observations from a re-analysis of the deposited data

How the results depend on the processing

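Under 9 alternatives, IDH1, IDH2, ME1, ME2, PDK4, PDK2 and DLST kept their sign against both controls, and no member past 1.5-fold changed sign in a comparison. The filter settings could not change any member, as all were detected on all 3 arrays. The mean of detected probes could not change a gene with 1 probe. The counts moved more. Set against the empty vector, 2 members were higher by 1.5-fold, and 1 with normexp on all probes, no background correction, an offset of 50 or the authors' processed table; IDH2 was the 1 below, and 0 with the authors' table. Above the wt array there were 3, against 0 under those same 4 settings (where 3.23% to 5.09% of all genes were higher, 8.65% as reported) and 5 with median scaling (23.5% of all genes); ME2 was the 1 below, and 0 with the authors' table or median scaling. Above both controls there were 2, 0 under those 4 settings, 3 with median scaling (also 3 against the empty vector, with 15.1% of all genes) and 1 with scaling to the probes detected on all 3 arrays. Between the controls 1 was higher, 0 with the authors' table and 2 with either scaling. The members' medians turned from -0.10 to 0.14 and from -0.17 to 0.12 with median scaling, where 6 members in place of 19 lay below both controls and 20 in place of 7 above; less the median of all genes they were -0.06 and -0.16, against -0.09 and -0.18 as reported. A larger offset narrows differences of dim genes by construction; other causes were not tested. Of all genes at least 1.5-fold from the empty vector array, 52.8% were higher, 65% with the authors' table, 82.9% with median scaling and 45.3% with scaling to detected probes; for the wt array these were 52.9%, 61.7%, 90.6% and 46.8%. Leaving out arrays and a paired analysis were not possible. No paired analysis was possible because each group had 1 array and the labels give no replicate numbers.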
